A study of Saccharomyces cerevisiae with 10 samples.

Results

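The genes described here are 28 rows of the gene table of Saccharomyces cerevisiae, the budding yeast, for which the deposited table gives no gene symbol and whose RNA stood far higher after heat shock in both strains studied. A gene was taken when its lowest FPKM (fragments scaled to gene length and to the library total) over the 5 libraries at 50 °C was at least 5 and at least 4 times its highest FPKM over the 5 libraries at 30 °C. Identifiers starting with YCL, YCR or YGL were left out. Of 6059 rows in all, 927 carried no symbol, 864 of these could be taken under the rule, and 28 met it, which is 3.24%. Among the 5132 rows with a symbol, 139 (2.71%) met the same numbers. The genes were thus chosen by their FPKM at both temperatures in all 10 libraries, and their heat response is given as a description with no test.

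Z100 is a strain that was evolved under mild heat, and XH7 is its control strain; the study asked which genetic changes mark Z100. The 4 groups were Z100 after 1 h of heat shock at 50 °C (3 libraries), XH7 after the same heat shock (2 libraries), Z100 at 30 °C (3 libraries) and XH7 at 30 °C (2 libraries). Per the protocol, the cultures that were not heat-shocked stood in an ice-water mixture, so the 30 °C libraries may carry an exposure to cold. Library totals ran from 51901045 to 81442848 counts. Whether the libraries of a group stem from different cultures is not stated, and every p-value here rests on the scatter among libraries, part or all of which may be technical.

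Heat shock in yeast is answered mainly by a pair of regulatory systems. Hsf1 binds heat shock elements, made of alternating nGAAn units, and drives chaperone genes. Msn2 and Msn4, which move to the nucleus when protein kinase A activity drops, bind the stress response element and drive a broad set of stress genes for carbohydrate reserves, redox enzymes and membrane proteins. Many stress-induced genes were found by genome-wide profiling and are still known only by their systematic name, which gives chromosome, arm, position and strand.

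The rows matched RefSeq genes of assembly R64 by identifier and position in 28 of 28 cases. Of these, 26 code for proteins and 2 are the long and short forms of U5, a spliceosomal RNA. RefSeq calls the product of 20 an uncharacterized protein, and it gives a symbol to 2 coding genes, ROQ1 for YJL144W and CPP3 for YDR034W-B. In 7 rows the deposited identifier differed from the RefSeq locus tag, which is the name used here. The genes lay on 11 chromosomes.

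Levels of the 28 genes covered a wide range. The lowest FPKM at 50 °C ran from 6.97 for the long U5 form to 7771 for YER053C-A, with a median of 127.4, and it was 100 or more in 16 genes. The highest FPKM at 30 °C ran from 0.872 to 549.1, with a median of 14.0. The log2 ratio of the mean FPKM at 50 °C to that at 30 °C was 2.59 to 6.89 in Z100 (median 3.70) and 2.42 to 7.02 in XH7 (median 3.78). Over all genes the median of this ratio was -0.69 in Z100 and -0.53 in XH7, and over the 139 named genes that meet the same numbers it was 4.09 in Z100 and 4.24 in XH7. Together the 28 genes took 0.940 to 1.09% of all counts in Z100 at 50 °C, 0.785 to 0.816% in XH7 at 50 °C, 0.0692 to 0.0751% in Z100 at 30 °C and 0.0427 to 0.0451% in XH7 at 30 °C. All values are shares of a library, so a rise of these RNAs and a fall of the other RNA cannot be told apart. Each library pools many cells, so more cells with the RNA and more RNA per cell cannot be told apart either. For scale, HSP26, a small heat shock protein gene, had 28326 FPKM or more at 50 °C, and HSP104, the disaggregase gene, had 5654 or more.

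**Figure D1:**
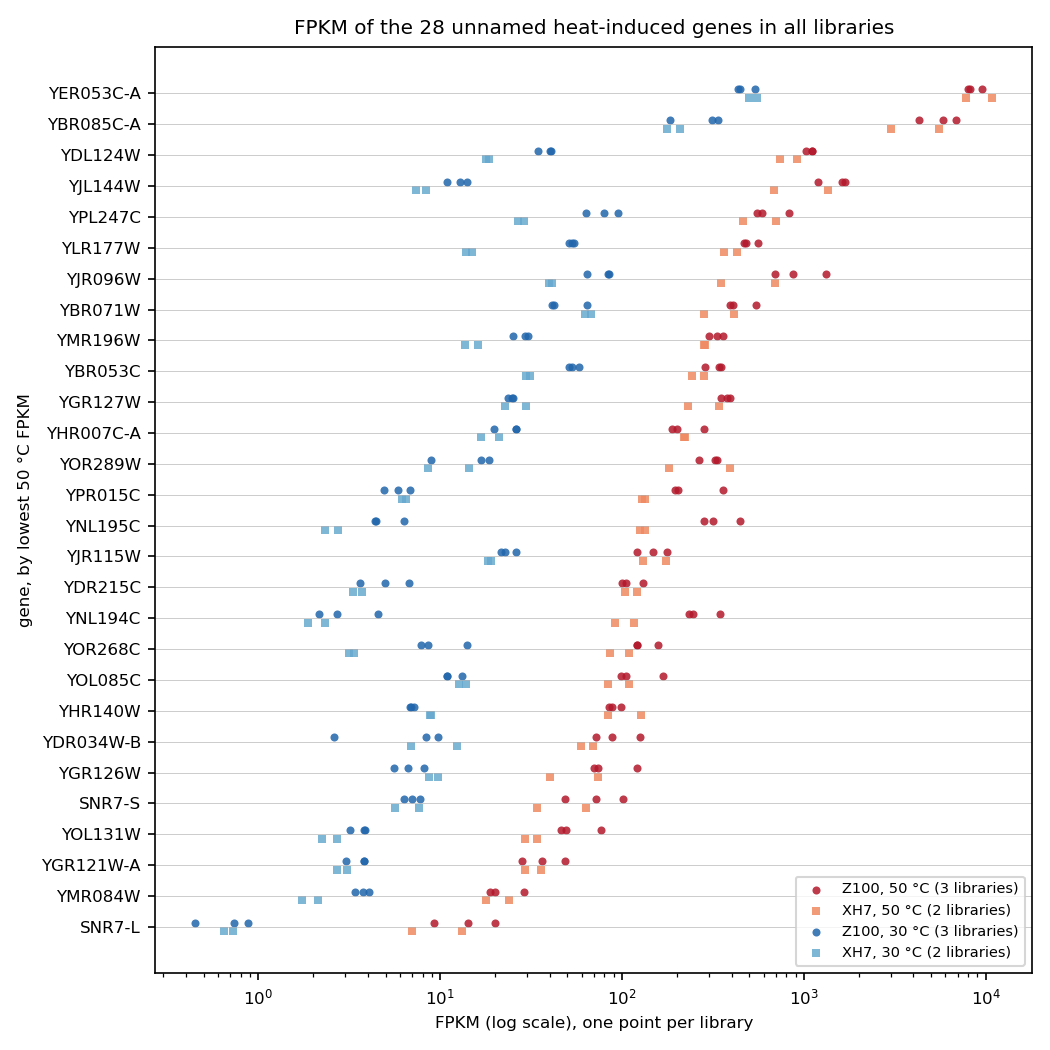
FPKM of each of the 28 genes (rows, ordered by their lowest value at 50 °C) in each of the 10 libraries, on a log axis; circles are Z100 and squares XH7, red tones 50 °C and blue tones 30 °C. Each gene's 5 points at 50 °C lie right of its 5 points at 30 °C, as the rule requires, and the top row, YER053C-A, lies between 7771 and 10838 FPKM at 50 °C.

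The genes at the edge of the thresholds were close to genes outside them. By fold, YGR126W at 4.12 times and YBR053C at 4.16 times were just inside, and YBR139W at 3.95 times and YML100W-A at 3.86 times just outside. By level, the long U5 form with a lowest FPKM of 6.97 and YMR084W with 17.9 were just inside, and YPR159C-A with 3.003 and YFL015C with 2.60 just outside. In 7 genes the fold was above 10, and in 9 it was under 5.

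The highest levels belonged to a pair of very short open reading frames. YER053C-A, whose product fused to a fluorescent protein was seen at the endoplasmic reticulum, had 8014, 8236 and 9585 FPKM in Z100 against 7771 and 10838 in XH7 at 50 °C, and 537.2, 443.6 and 435.4 in Z100 against 549.1 and 501.5 in XH7 at 30 °C. YBR085C-A, seen in the cytoplasm and nucleus, had 4294, 5810 and 6816 FPKM in Z100 against 3029 and 5532 in XH7 at 50 °C, and 312.0, 183.7 and 338.6 in Z100 against 175.9 and 209.1 in XH7 at 30 °C. In FPKM the strains overlapped at both temperatures in both genes. In counts per library total scaled by TMM (CPM), the scaling of the tests on strains further on, YBR085C-A did not overlap, with 1639, 1786 and 2238 in Z100 against 1018 and 1406 in XH7 at 50 °C, and 63.6, 44.1 and 71.1 in Z100 against 36.7 and 39.3 in XH7 at 30 °C. Overlaps stated for the genes that follow are of FPKM unless TMM is named. These genes are 114 and 258 bases long, and how fragments were assigned to such short genes is not given in the sources used here. By mean FPKM over all rows, YER053C-A held rank 19 in Z100 at 50 °C and rank 18 in XH7 at 50 °C, against rank 374 in Z100 at 30 °C and rank 311 in XH7 at 30 °C.

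In protein quality control, the gene with the widest gap between temperatures was YJL144W (ROQ1). Its product is a substrate-specificity factor of the ubiquitin ligase Ubr1, acting on misfolded proteins in a stress-induced degradation pathway, and is also a hydrophilin, a hydrophilic protein needed in desiccation. It had 1189, 1613 and 1672 FPKM in Z100 against 681.3 and 1354 in XH7 at 50 °C, and 12.8, 10.9 and 13.9 in Z100 against 8.37 and 7.36 in XH7 at 30 °C. Its lowest value at 50 °C was 48.9 times its highest at 30 °C, the widest of the 28, and by mean FPKM it held rank 115 of all rows in Z100 at 50 °C, against rank 4617 in Z100 at 30 °C. At 30 °C all Z100 libraries lay above both XH7 libraries, and at 50 °C the strains overlapped in FPKM but not in TMM-scaled CPM (554, 605 and 670 in Z100 against 279.5 and 420 in XH7). YOR289W, which the RefSeq note calls induced by the unfolded protein response, had 332.1, 264.7 and 323.3 FPKM in Z100 at 50 °C and 391.7 and 181.3 in XH7 at 50 °C, against 8.60 to 18.5 over the 30 °C libraries.

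A pair of the genes encode aldo-keto reductases, enzymes that reduce aldehydes and ketones with NADPH. YDL124W, an alpha-keto amide reductase, had 1109, 1024 and 1107 FPKM in Z100 against 921.1 and 741.9 in XH7 at 50 °C, and 40.5, 34.3 and 39.95 in Z100 against 17.9 and 18.6 in XH7 at 30 °C. Z100 lay above XH7 in every library at both temperatures, and the libraries of each group were close together. YJR096W, a xylose and arabinose reductase, had 1328, 689.8 and 874.5 FPKM in Z100 against 694.9 and 351.8 in XH7 at 50 °C, and 83.8, 63.7 and 84.4 in Z100 against 41.0 and 39.9 in XH7 at 30 °C. Replicate 1 was the highest library of both strains at 50 °C for YJR096W. Among enzyme-like products, YBR053C, a regucalcin-like protein induced by cell wall perturbation, had 349.3, 284.3 and 341.9 FPKM in Z100 against 282.3 and 242.1 in XH7 at 50 °C, and 58.3, 53.1 and 51.1 in Z100 against 31.0 and 29.5 in XH7 at 30 °C. YMR084W, part of a split reading frame related to the amidotransferase GFA1, had only 28.7, 18.9 and 19.9 FPKM in Z100 against 23.8 and 17.9 in XH7 at 50 °C, and 4.08, 3.39 and 3.74 in Z100 against 1.74 and 2.13 in XH7 at 30 °C.

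Genes of membrane proteins included YNL194C, whose product resembles the eisosome protein Sur7 and is required for sporulation and for plasma membrane sphingolipid content. It had 344.9, 246.2 and 233.0 FPKM in Z100 against 91.5 and 116.8 in XH7 at 50 °C, and 2.15, 4.55 and 2.72 in Z100 against 1.88 and 2.31 in XH7 at 30 °C. Every Z100 library at 50 °C was above both XH7 libraries, and the strains overlapped at 30 °C. Its neighbour YNL195C, which per the RefSeq note shares a promoter with it, had 445.9, 281.5 and 317.2 FPKM in Z100 against 125.9 and 134.1 in XH7 at 50 °C, and 4.35, 4.41 and 6.33 in Z100 against 2.33 and 2.76 in XH7 at 30 °C. Here the strains did not overlap at either temperature. The folds between temperatures, 20.1 for YNL194C and 19.9 for YNL195C, followed that of YJL144W. YDR034W-B (CPP3), a small cysteine-rich palmitoylated protein of the plasma membrane, and YHR140W, an endoplasmic reticulum protein, had 59.1 to 125.7 and 83.2 to 127.4 FPKM over the 50 °C libraries, against 2.59 to 12.4 and 6.84 to 8.87 over the 30 °C libraries.

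Putative regulators and signalling proteins were fewer. YPR015C, a putative zinc finger transcription factor, had 358.3, 195.7 and 202.8 FPKM in Z100 against 133.9 and 128.9 in XH7 at 50 °C, and 6.81, 4.92 and 5.84 in Z100 against 6.18 and 6.44 in XH7 at 30 °C. Its Z100 libraries were all above XH7 at 50 °C and lay around the XH7 values at 30 °C. YPL247C, a WD repeat protein similar to the petunia protein an11, had 827.3, 591.5 and 552.0 FPKM in Z100 against 703.8 and 461.7 in XH7 at 50 °C, and 63.4, 95.4 and 79.5 in Z100 against 28.9 and 26.8 in XH7 at 30 °C. YLR177W, a paralog of PSP1 that the kinase complex Dbf2-Mob1 phosphorylates in vitro, had 559.3, 479.5 and 470.6 FPKM in Z100 against 362.4 and 426.5 in XH7 at 50 °C, and 54.6, 52.9 and 51.2 in Z100 against 13.9 and 15.01 in XH7 at 30 °C. For both YPL247C and YLR177W the strains stood well apart at 30 °C, while at 50 °C they overlapped for YPL247C and were close for YLR177W. YGR127W, a protein of heme trafficking to the nucleus and the member whose RefSeq note names Msn2 and Msn4 as its regulators, had 378.2, 349.9 and 393.2 FPKM in Z100 against 229.2 and 342.4 in XH7 at 50 °C, and 25.1, 23.4 and 24.9 in Z100 against 22.7 and 29.8 in XH7 at 30 °C.

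Among the genes with little known of their products, YBR071W, found in the cytoplasm and bud neck, had 544.8, 390.5 and 406.1 FPKM in Z100 against 412.8 and 282.0 in XH7 at 50 °C, and 64.3, 42.2 and 41.0 in Z100 against 62.8 and 67.3 in XH7 at 30 °C. YMR196W, a large cytoplasmic protein, had 357.3, 301.9 and 332.5 FPKM in Z100 against 284.8 and 281.6 in XH7 at 50 °C, and 29.4, 25.3 and 30.5 in Z100 against 13.6 and 16.1 in XH7 at 30 °C. Z100 was above XH7 in every YMR196W library at both temperatures in FPKM, though at 50 °C they overlapped in TMM-scaled counts, whereas the YBR071W libraries of the strains overlapped. YOR268C, whose deletion makes sporulation abnormal, had 157.0, 120.7 and 120.5 FPKM in Z100 against 108.5 and 85.5 in XH7 at 50 °C, and 7.79, 14.0 and 8.51 in Z100 against 3.16 and 3.34 in XH7 at 30 °C. The 7 that remain, YHR007C-A, YJR115W, YDR215C, YOL085C, YGR126W, YOL131W and YGR121W-A, had lowest levels of 27.99 FPKM (YGR121W-A) to 187.1 FPKM (YHR007C-A) at 50 °C and highest levels of 3.82 FPKM (YGR121W-A) to 26.2 FPKM (YHR007C-A and YJR115W) at 30 °C.

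The U5 rows are RNAs that carry no poly(A) tail in their mature form, while these libraries were made from poly(A)-selected RNA. The short form is derived from the long form by processing at the 3′ end, and its row lies inside that of the long form on chromosome VII, so reads in the shared bases cannot be told apart. The long form (SNR7-L) had 338, 156 and 227 counts in Z100 against 229 and 117 in XH7 at 50 °C, and 12, 5 and 10 in Z100 against 12 and 10 in XH7 at 30 °C. The short form (SNR7-S) had 1437, 686 and 960 counts in Z100 against 924 and 480 in XH7 at 50 °C, and 80, 59 and 88 in Z100 against 105 and 73 in XH7 at 30 °C. In FPKM the long form was 19.02 to 20.7% of the short form over the 50 °C libraries and 7.09 to 12.5% over the 30 °C libraries. The bases that belong to the long form only, which set the rows apart, are the following stretch at its 3′ end, read from the R64 assembly at chrVII:939459-939493, minus strand.
SNR7-L 3′ extension: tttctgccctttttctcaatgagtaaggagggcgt

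Promoters of the 26 coding genes were read from R64, from 250 bases before to 50 bases after the start codon, and searched on both strands. The stress response element (STRE, AGGGG), the site of Msn2 and Msn4, was present in 19 of 26 (73.1%), against 48.2% of the 139 named genes that meet the same numbers, 23.4% of 738 other unnamed genes and 21.6% of 6007 promoters. At least 2 matches were found in 5 of 26 (19.2%), against 15.8% of these named genes and 2.96% of all promoters. YLR177W and YDR034W-B held 3 each. In YOR268C the match lay after the start codon. Of the heat shock elements of 2 units, TTCNNGAA occurred in 5 of 26 (19.2%), against 23.0% of the named genes and 12.9% of all promoters, and GAANNTTC in 4 of 26 (15.4%), against 19.4% and 11.8%. The 3-unit element, GAANNTTC followed by NNGAA or TTCNNGAA followed by NNTTC, which overlaps the 2-unit forms, occurred in 0 of 26, against 7.19% of the named genes and 0.782% of all promoters. The post-diauxic shift element (TAAGGGAT or TTAGGGAT) and the proteasome-associated element (GGTGGCAAA) occurred in 0 of 26, against 1.58% and 1.20% of all promoters. These are matches of letters in a window, not binding sites. In a window of the 500 bases before the start codon the STRE share was 73.1% for the 26 genes, against 69.1% of the named genes and 34.1% of all promoters. In that window TTCNNGAA was in 42.3%, against 36.7% of the named genes and 21.2% of all promoters, and GAANNTTC in 34.6%, against 30.2% and 19.2%, so whether the 26 genes held these elements more or less often than the named genes turned with the window. The 7 coding genes with no STRE in the 300-base window were YBR071W, YDR215C, YHR140W, YNL195C, YOL131W, YOR289W and YPR015C.

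The promoters of the highest pair of genes and of the gene with the widest gap between temperatures are printed as the 250 bases before the start codon in R64, to show where the elements lie. Capitals mark STRE, which reads CCCCT on the opposite strand, and in YJL144W also a 2-unit heat shock element. They come from chrV:261047-261296 (minus strand), chrII:419165-419414 (minus strand) and chrX:146109-146358 (plus strand).
YER053C-A: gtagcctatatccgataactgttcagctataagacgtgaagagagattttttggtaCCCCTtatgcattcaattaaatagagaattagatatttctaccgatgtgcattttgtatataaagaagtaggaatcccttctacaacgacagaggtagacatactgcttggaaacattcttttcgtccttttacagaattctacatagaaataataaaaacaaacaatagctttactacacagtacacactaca
YBR085C-A: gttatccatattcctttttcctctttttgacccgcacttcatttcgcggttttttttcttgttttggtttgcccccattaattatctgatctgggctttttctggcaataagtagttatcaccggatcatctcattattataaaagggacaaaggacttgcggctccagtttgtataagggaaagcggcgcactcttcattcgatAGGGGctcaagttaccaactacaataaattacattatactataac
YJL144W: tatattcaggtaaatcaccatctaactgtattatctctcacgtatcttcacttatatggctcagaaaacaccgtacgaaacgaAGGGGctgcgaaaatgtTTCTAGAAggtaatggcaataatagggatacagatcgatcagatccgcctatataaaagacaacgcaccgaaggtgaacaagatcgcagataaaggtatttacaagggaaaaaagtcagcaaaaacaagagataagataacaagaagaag
The STRE began 194 bases before the start codon in YER053C-A, 45 bases before it in YBR085C-A and 167 bases before it in YJL144W, where the heat shock element began at 150 bases.

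**Figure D2:**
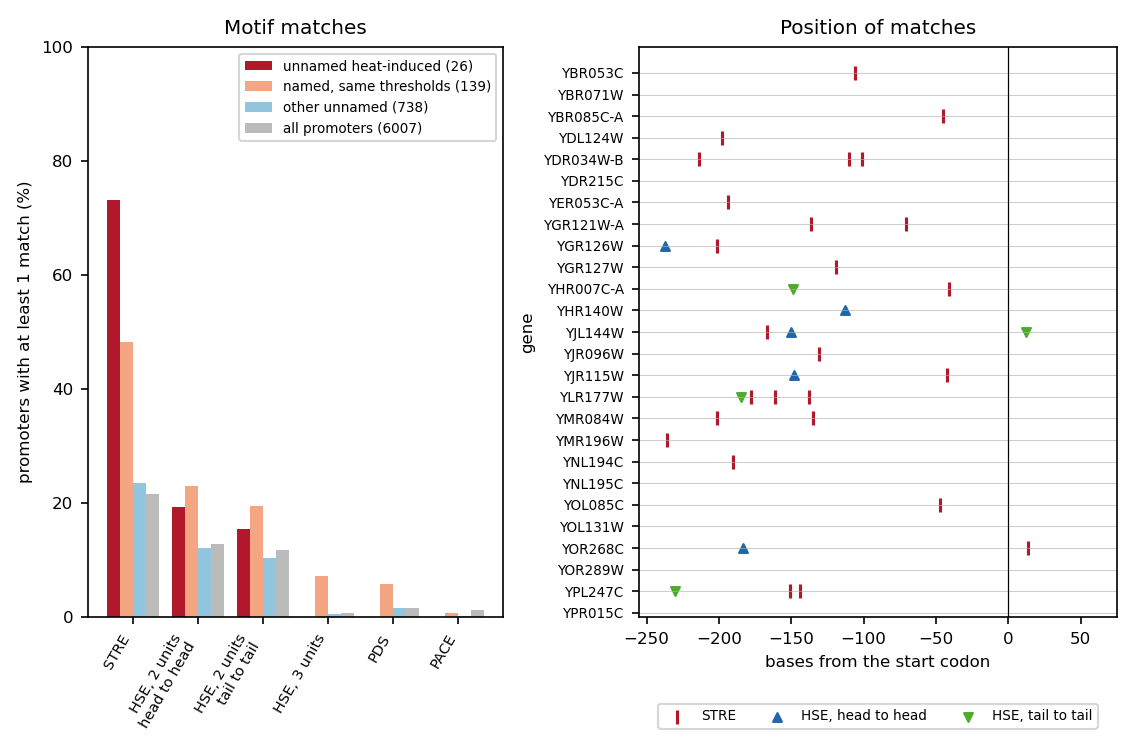
Left, share of promoters (%) with at least 1 match of each motif in the 300-base window, for the 26 coding genes, the 139 named genes that meet the same thresholds, 738 other unnamed genes and all 6007 promoters; right, position of each STRE and 2-unit heat shock element (HSE) in bases from the start codon. The STRE bar of the 26 genes stands at 73.1%, against 21.6% for all promoters, and matches lie from far upstream to just past the start codon.

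Several of the genes lie beside another gene with the same response. A flanking or overlapping gene met the same numbers for 13 of 28 (46.4%), against 5.45% of all rows and 31.0% of all rows that meet the numbers themselves. The 13 include both U5 rows, which are nested and count only each other, and the 28 are part of the rows behind the 31.0%. Pairs within the 28 were YNL195C and YNL194C, 401 bases apart on the same strand, YGR126W and YGR127W, 270 bases apart on the same strand, and both U5 forms. The other flanking genes that met the numbers were MPD1, of the protein disulfide isomerase family, 279 bases from YOR289W and divergent, PHM7, 341 bases from YOL085C and divergent, YRO2, 2349 bases from YBR053C and divergent, GIP2, 1005 bases from YER053C-A on the same strand, ADR1, 532 bases from YDR215C, and HSP26, AHA1 and TFS1. YGR126W had 120.0, 69.6 and 73.5 FPKM in Z100 against 73.9 and 40.2 in XH7 at 50 °C, and 8.19, 6.61 and 5.58 in Z100 against 8.67 and 9.76 in XH7 at 30 °C. Its level was 11.7 to 32.3% of that of YGR127W at 50 °C and 22.4 to 38.1% at 30 °C. YBR071W lies upstream of HSP26, with 983 bases between them, on the same strand, and had 0.900 to 1.05% of the FPKM of HSP26 at 50 °C and 614 to 2475% of it at 30 °C.

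The library kit does not mark strand, so reads that run past the end of a stronger neighbour cannot be told from a gene's own, and the levels of such pairs are given side by side. YHR007C-A starts 123 bases past the end of SOD2, the gene of mitochondrial superoxide dismutase, on the same strand. YHR007C-A had 281.6, 187.1 and 201.2 FPKM in Z100 against 220.9 and 218.8 in XH7 at 50 °C, and 26.1, 26.2 and 19.7 in Z100 against 16.6 and 21.0 in XH7 at 30 °C. SOD2 had 1928, 1757 and 1829 FPKM in Z100 against 1814 and 1724 in XH7 at 50 °C, and 570.4, 557.5 and 445.8 in Z100 against 281.2 and 291.5 in XH7 at 30 °C. YHR007C-A was thus at 10.6 to 14.6% of SOD2 at 50 °C and at 4.43 to 7.19% at 30 °C. YDR215C converges with AHA1, an Hsp90 co-chaperone gene, at 161 bases, and had 3.79 to 4.59% of its FPKM at 50 °C and 1.01 to 2.37% at 30 °C. YLR177W converges with TFS1, an inhibitor of carboxypeptidase Y, at 221 bases, and had 7.16 to 17.6% of its FPKM at 50 °C and 43.5 to 52.7% at 30 °C. The share of YLR177W in TFS1 was lower at 50 °C in every library, so the ratio was not fixed between temperatures. At 30 °C this share was close between strains, at 43.5 to 45.1% in Z100 against 45.9 and 52.7% in XH7. TFS1 itself had 117.2 to 124.1 FPKM in Z100 against 30.3 and 28.5 in XH7 at 30 °C. The shares of YDR215C in AHA1 and of YHR007C-A in SOD2 were higher at 50 °C in every library. The part of such reads in these levels was not tested. YPL247C overlaps the annotated antisense RNA YNCP0002W, whose reads cannot be told from its own. No other coding gene of the 28 overlaps an annotated gene.

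**Figure D3:**
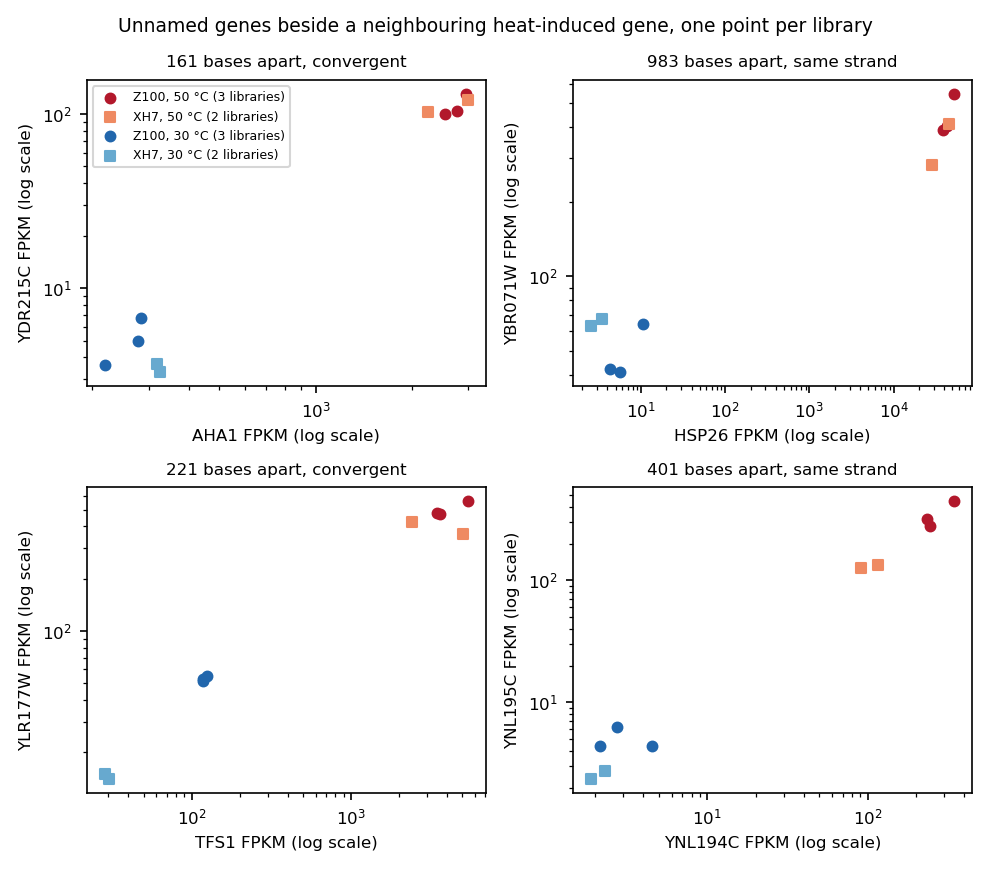
FPKM of 4 of the genes (y axis) against the FPKM of a flanking gene (x axis), log scales, with 1 point per library; circles are Z100, squares XH7, red tones 50 °C and blue tones 30 °C. In each panel the 5 libraries at 50 °C lie up and to the right of those at 30 °C, and in the YLR177W panel the Z100 libraries at 30 °C stand apart from the XH7 libraries in both genes.

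RefSeq names a paralog for 6 of the genes, and 0 of the 6 paralogs met the same numbers. Of all rows with a symbol 2.71% met them, so 0 of 6 does not set these paralogs apart from other named genes. The 6 genes were taken by the rule for a high FPKM ratio between temperatures, and their paralogs were not. A larger heat ratio in a gene than in its paralog is thus built in by the rule, and the ratios are given as a description. YNL194C was set beside FMP45, which shares 49.8% identical residues with it in a global alignment. FMP45 had 562.1, 81.4 and 86.0 FPKM in Z100 against 21.3 and 14.3 in XH7 at 50 °C, and 7.86 to 10.2 in Z100 against 3.88 to 3.91 in XH7 at 30 °C. Like YNL194C it was higher in Z100 than in XH7 in every library at 50 °C, but its Z100 replicate 1 stood far above the other libraries. FMP45 rose with heat in both strains, with log2 ratios of mean FPKM of 4.77 in Z100 and 2.19 in XH7. Without replicate 1 at 50 °C the Z100 ratio was 3.23. Those of YNL194C were 6.45 in Z100 and 5.64 in XH7. The log2 ratio of mean FPKM at 50 °C to that at 30 °C was 3.25 in Z100 and 4.77 in XH7 for YLR177W, against 1.71 in Z100 and 1.65 in XH7 for its paralog PSP1 (40.5% identity). For YDR034W-B it was 3.79 in Z100 and 2.73 in XH7, against 0.52 in Z100 and 1.29 in XH7 for MNC1 (45.5% identity). The Z100 libraries overlapped between temperatures for MNC1, at 61.5 to 187.6 FPKM at 30 °C and 169.4 to 215.3 at 50 °C. Identity was counted over all alignment columns, gaps included, so unlike lengths alone lower it. The alignment of YOL131W, of 108 residues, with STB1 had 423 columns, and that of YNL195C, of 261 residues, with HBT1 had 1047. These paralogs and ECM13 are given last. YJR115W had log2 ratios of 2.66 in Z100 and 3.02 in XH7, against -4.13 in Z100 and -4.67 in XH7 for ECM13 (16.2% identity). YOL131W had 3.98 in Z100 and 3.68 in XH7, against -2.18 in Z100 and -1.21 in XH7 for STB1 (9.69% identity), a regulator of the start of the cell cycle. YNL195C had 6.11 in Z100 and 5.68 in XH7, against 1.51 in Z100 and -0.47 in XH7 for HBT1 (9.17% identity). The HBT1 value in Z100 rested on replicate 1, with 43.0 FPKM against 8.30 and 9.43 in the other Z100 libraries at 50 °C, and without it the log2 ratio was 0.32.

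The 26 proteins were short. Their median length was 234.5 residues (37 to 1088), against 397 over 6002 proteins and 248 over 737 other unnamed ones. Proteins of at most 100 residues made up 5 of 26 (19.2%), against 5.63% of all and 17.5% of the other unnamed, and the longest was that of YMR196W. The median hydropathy (grand average, negative for hydrophilic proteins) was -0.45, against -0.39 over all proteins, and the lowest was that of YJL144W at -1.14. A hydrophobic window of 19 residues, as membrane-spanning segments have, was present in 7 of 26 (26.9%), against 29.8% of all. The 7 were YNL194C, YOR268C, YLR177W, YER053C-A, YDR034W-B, YDR215C and YHR140W. Of 325 pairs of these proteins, 0 shared 40% or more identical residues, and the closest were the reductases YDL124W and YJR096W at 28.7%. Identity was counted over all alignment columns, gaps included, so pairs of very unlike length could not reach 40%.

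The comparison of strains at 30 °C asks which of the genes differed in the evolved strain without heat shock. The rule does not fix its direction but limits its size. It sets the highest FPKM without heat shock over both strains against the lowest after heat shock over both. A gene far higher in either strain without heat shock could thus be left out, while the shares over all genes carry no such limit. Of the 28 genes, 9 were higher in Z100 and 0 lower, while of 6015 genes tested 28.4% were called, 14.3% higher and 14.1% lower. YLR177W was 4.02-fold higher in Z100 at 30 °C, YOR268C 3.47-fold and YPL247C 3.17-fold. The test was edgeR's quasi-likelihood test on the counts, with p adjusted over all genes. For YLR177W, at 52.9 ± 1.73 FPKM in Z100 and 14.5 ± 0.78 in XH7 (SD, n = 3 and 2), edgeR gave a log2 fold change of 2.01 ± 0.22 (SE, adjusted p = 0.000409). Its convergent neighbour TFS1 was also higher in Z100 at 30 °C, with 117.2 to 124.1 FPKM against 30.3 and 28.5 in XH7. Reads that run past the end of TFS1 cannot be told from those of YLR177W, and their part was not tested. YOR268C averaged 10.1 ± 3.42 FPKM in Z100 and 3.25 ± 0.13 in XH7, with a log2 fold change of 1.796 ± 0.39 (edgeR adjusted p = 0.0102). YPL247C averaged 79.4 ± 16.0 FPKM in Z100 and 27.8 ± 1.46 in XH7, with 1.66 ± 0.39 (edgeR adjusted p = 0.0136), where reads of its antisense partner cannot be told from its own.

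The reductase YDL124W followed, at 38.2 ± 3.46 FPKM in Z100 and 18.3 ± 0.467 in XH7 at 30 °C, with a log2 fold change of 1.19 ± 0.24 (edgeR adjusted p = 0.00743). YNL195C averaged 5.03 ± 1.13 FPKM in Z100 and 2.54 ± 0.302 in XH7, with 1.12 ± 0.31 (edgeR adjusted p = 0.0241). The other 4 called genes, YMR084W, YMR196W, YBR053C and YJL144W, had log2 fold changes of 0.80 (YJL144W) to 1.08 (YMR084W). By role, the called genes were the quality-control factor YJL144W, the reductase YDL124W, the regucalcin-like YBR053C, the GFA1-related YMR084W, the WD repeat gene YPL247C and 4 of little known function. Neither of the highest pair, YER053C-A and YBR085C-A, was among them. The median log2 fold change of the 28 genes was 0.57, against -0.08 over all genes and 0.58 over the 139 named genes that meet the same numbers, of which 53 were called higher and 8 lower. Without XH7 replicate 1 or 2 at 30 °C, 1 of the 28 was called, YLR177W, while calls over all genes fell to 552 without replicate 1 and to 292 without replicate 2, against 1709 with both. The median of the 28 was 0.56 without replicate 1 and 0.67 without replicate 2. By unadjusted p under 0.05, edgeR put 11 of the 28 higher and 0 lower in Z100. Genes passing an unadjusted p were not counted over all genes, here or in the comparisons that follow. DESeq2 called 11 of the 28 higher and 0 lower, while of all 6015 genes it called 2113, 1139 higher and 974 lower.

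After heat shock fewer of the genes passed the test. The rule limits this comparison too, as a gene far lower in either strain at 50 °C could be left out. The shares over all genes carry no such limit. At 50 °C, 3 of 28 were higher in Z100 and 0 lower, while 8.96% of all genes tested were called, 4.02% higher and 4.94% lower. The neighbours YNL195C and YNL194C led, at 3.15-fold and 3.13-fold higher in Z100. YNL195C averaged 348 ± 86.4 FPKM in Z100 and 130.0 ± 5.81 in XH7 (SD, n = 3 and 2), with a log2 fold change of 1.66 ± 0.30 (edgeR adjusted p = 0.0133). YNL194C averaged 275 ± 61.2 FPKM in Z100 and 104 ± 17.9 in XH7, with 1.65 ± 0.38 (edgeR adjusted p = 0.029). YJL144W averaged 1491 ± 263 FPKM in Z100 and 1017 ± 475 in XH7, with 0.80 ± 0.21 (edgeR adjusted p = 0.0453). Its FPKM overlapped between strains and its TMM-scaled counts did not, and its call was lost without any 1 library other than XH7 replicate 2 at 50 °C (edgeR adjusted p 0.0624 to 0.135).

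By sign alone, the log2 fold change at 50 °C was above 0 in 28 of 28 genes, against 49.3% of all genes tested, with a median of 0.57, against -0.01 over all genes and 0.53 over the named genes that meet the same numbers. It was above 0 in 23 of 28 without Z100 replicate 1 at 50 °C, in 24 without XH7 replicate 2 at 50 °C, in 25 with library size as the only scaling and in 23 by limma on log2(FPKM + 1). The median of the 28 was 0.36 without Z100 replicate 1, 0.27 without XH7 replicate 2 and 0.95 without XH7 replicate 1 at 50 °C. The number of calls moved with the fit, over all genes too. DESeq2 called 8 of the 28 higher and 1070 of all 6015 genes, against 539 by edgeR. With only the 50 °C libraries edgeR called 0 of the 28 (7 higher and 0 lower at an unadjusted p under 0.05) and 4 of 5989 genes. Leaving out 1 library gave 1 to 5 of the 28 and 146 to 607 of all genes.

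**Figure D4:**
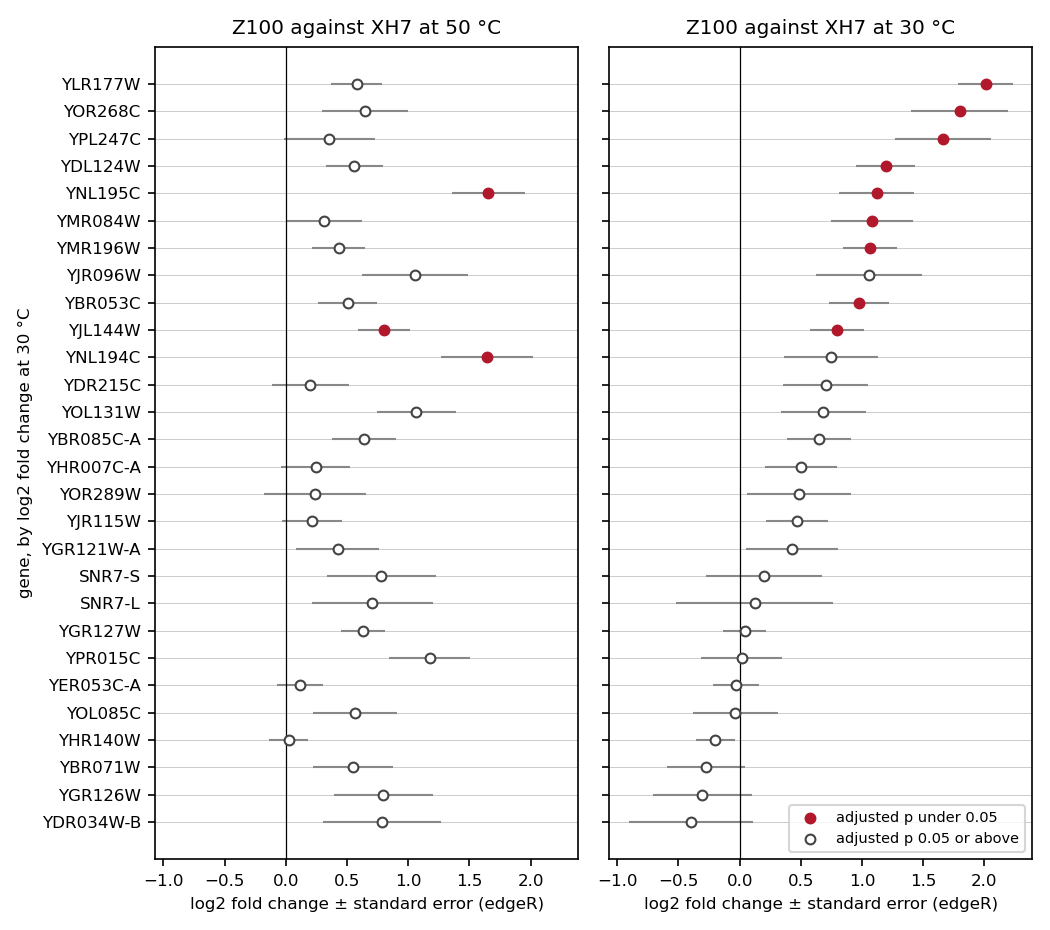
Log2 fold change of Z100 over XH7 with its standard error (edgeR) for each of the 28 genes, at 50 °C (left panel) and at 30 °C (right panel), ordered by the value at 30 °C; filled points have an adjusted p under 0.05. The 3 filled points at 50 °C are YNL195C (1.66), YNL194C (1.65) and YJL144W (0.80), and the 9 at 30 °C reach from YJL144W (0.80) to YLR177W (2.01).

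Scaled by TMM, the counts of 17 of 28 genes in Z100 at 30 °C lay above XH7 with no overlap of libraries, and 1 lay below, against 31.8% and 40.5% of all genes. At 50 °C, 10 lay above and 0 below, against 18% and 18.4% of all genes. The gene that lay below at 30 °C was YGR126W.

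Whether heat moved a gene more in Z100 than in XH7 was tested as the difference between the strains' log2 heat responses. The rule asks for a strong response in both strains and so holds this difference down. Only YLR177W was called among the 28, with 0 higher in Z100 and 1 lower, while 4.27% of all genes tested were called, 1.63% higher and 2.64% lower. For YLR177W the mean FPKM at 50 °C was 503 ± 48.8 in Z100 and 394 ± 45.3 in XH7, and the difference between responses was -1.43 ± 0.29 on the log2 scale (edgeR adjusted p = 0.0271). The strains were thus 4.02-fold apart in YLR177W at 30 °C and 1.49-fold apart at 50 °C. By unadjusted p under 0.05, edgeR put 2 genes higher and 3 lower. DESeq2 called 0 of the 28 higher and 1 lower, while of all 6015 genes it called 841, 359 higher and 482 lower. The difference was above 0 in 14 of 28 genes, against 53.0% of all genes, with a median of 0.00, against 0.05 over all genes. The call of YLR177W was lost without any 1 of 8 libraries, all but Z100 replicate 1 and XH7 replicate 2 at 50 °C, where calls over all genes numbered 2 to 194, against 257 with all libraries. Without XH7 replicate 2 at 50 °C, 3 of the 28 were called lower, and calls over all genes rose to 1065.

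Named genes generally assigned to Msn2 and Msn4 or to Hsf1 were counted for context, from lists chosen with results of these data known. Which regulators act on the 28 genes was not tested. Of 33 genes generally assigned to Msn2 and Msn4, 25 met the numbers of the rule. Over all 33, Z100 was called higher in 25 and lower in 0 at 30 °C (median log2 fold change 1.41). At 50 °C it was called higher in 8 and lower in 0 (median 0.70). The heat response was called smaller in Z100 in 8 and larger in 0 (median -0.52). Of 27 chaperone genes generally assigned to Hsf1, 21 met the numbers. Over all 27, Z100 was called higher in 7 and lower in 5 at 30 °C (median -0.17). At 50 °C it was called higher in 2 and lower in 0 (median 0.37). The heat response was called larger in Z100 in 3 and smaller in 1 (median 0.60). Of all genes tested, Z100 was called higher in 14.3% and lower in 14.1% at 30 °C. At 50 °C these shares were 4.02% and 4.94%, and for the response 1.63% and 2.64%. For the 28 unnamed genes the medians were 0.57 at 30 °C, 0.57 at 50 °C and 0.00 for the difference in response. Both lists hold only genes with a symbol, so none of the 28 could be in them. The differences between these medians were not tested.

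Replicates at 50 °C did not scatter evenly for these genes. In TMM-scaled counts, Z100 replicate 1 was the highest of its 3 libraries for 25 of 28 genes, against 42.0% of all genes, and XH7 replicate 1 was above replicate 2 for 22 of 28, against 48.3% of all genes. In 22 genes both held, against 33.9% of all genes. YER053C-A, YBR085C-A and YJL144W were among the genes in which neither held. The median coefficient of variation of FPKM over the 28 genes was 22.4% for Z100 libraries at 50 °C, 19.2% for XH7 libraries at 50 °C, 13.9% for Z100 libraries at 30 °C and 8.22% for XH7 libraries at 30 °C. Over all rows with a group mean of at least 5 FPKM it was 17.2% for Z100 libraries at 50 °C and 26.3% for XH7 libraries at 50 °C. At 30 °C it was 13.8% for Z100 libraries and 7.23% for XH7 libraries. That limit was not set on the 28 genes, some of which had lower means at 30 °C.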

How the data were processed

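Per the labels' protocols, RNA was extracted with TRIzol, selected by poly(A), made into libraries with a NEBNext Ultra kit, which does not mark strand, and sequenced on a NovaSeq. The authors deposited raw counts per gene and FPKM values, which are the counts scaled to gene length and to the library total. How reads were aligned and counted is not given in the sources used here. Gene positions in the tables carry the sequence names of assembly R64, and all 28 genes lay at the same positions in RefSeq's R64 annotation. The 3 lines emptied in each table are not analysed here.

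The genes were taken by the FPKM rule, and the members, lists and alternatives were chosen with earlier results of these data known. Strains were compared with edgeR 4.0.16 (R 4.3.3): TMM scaling, filterByExpr by group (6015 genes, among them all 28), 1 model of 4 group means over 10 libraries, the quasi-likelihood F test, and Benjamini-Hochberg adjustment over all genes, called at 0.05. Standard errors are the log2 fold change over the square root of F. Alternatives were DESeq2 1.42.0, limma 3.58.1 on log2(FPKM + 1), other scalings and filters, fits of only the groups compared, the replicate number as a block, other thresholds of the rule, and leaving out each library. A lone library left in a group took its spread from the pooled fit, as if it varied like the rest. The fits were tested on simulated data.

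Promoters were read from the R64 assembly and proteins translated from it (Biopython 1.88, global alignments with BLOSUM62). Genes were given a value in every library if among the 10 highest at 50 °C, the 5 widest folds, up to 5 called per comparison and direction by size, those just inside a threshold, those overlapping another gene that met the numbers, and neighbours of each other. Genes just outside a threshold have their edge values only, and the rest ranges, apart from YHR007C-A, added with its neighbour SOD2 after its values were seen, and part of YOR289W. Paralogs are those in the RefSeq notes and were chosen with their values known. Figures were drawn with matplotlib 3.10.9 on Python 3.11.15.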

Additional observations from a re-analysis of the deposited data

Results flagged for a closer look

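YLR177W was singled out because its heat response differed between the strains by a test of the difference itself. The log2 fold change with heat in Z100 minus that in XH7 was -1.43 (edgeR adjusted p = 0.0271). All 3 Z100 libraries at 30 °C (51.2 to 54.6 FPKM) were above both XH7 libraries at 30 °C (13.9 and 15.01 FPKM). Reads that run past the end of its convergent neighbour TFS1, also higher in Z100 at 30 °C, cannot be told from its own. No group here had the 4 samples that a check for a library far from the others needs.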

How the results depend on the processing

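The count of 28 genes became 53 with a fold of at least 3 and 57 with FPKM on TMM effective library sizes, and it ran from 28 to 35 when 1 library was left out. Genes called at 30 °C numbered 9, with 1 to 11 when 1 library was left out; the low value came without XH7 replicate 1 or 2 at 30 °C. Genes called at 50 °C numbered 3, against 8 with DESeq2, 5 with RLE scaling, 0 with only the 2 groups compared, and 1 to 5 when 1 library was left out. For the difference in heat response 1 gene was called, and 0 to 3 when 1 library was left out. Log2 fold changes above 0 numbered 22 at 30 °C (19 to 24 without 1 library), 28 at 50 °C (23 to 28) and 14 for the response (13 to 17). STRE was found in 19 promoters, and in 5 with at least 2 matches required; the 500-base window, chosen after seeing the data, gave 19. Genes overlapping another numbered 3, and 5 within 100 bases. Scaling by library size alone moved the all-gene median to -0.21 at 30 °C and -0.23 at 50 °C, and over all genes it called 77 higher and 358 lower at 50 °C, against 242 and 297 by TMM, and 39 higher and 299 lower for the response, against 98 and 159.

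The 13 single-gene results were recomputed in 233 alternatives: the direction never turned, 174 kept the call and 59 lost it. Of 103 settings that used all libraries or all of the groups compared, 93 kept it, and of 130 that left out 1 library, 81 did. YLR177W at 30 °C kept its call in all of its alternatives, and YNL195C at 50 °C lost it only with the 2 groups fitted alone (adjusted p = 0.122). YJL144W at 50 °C kept it in 1 of 10 fits without a library, YNL194C at 50 °C in 3 of 10, and the response difference of YLR177W in 2 of 10. Replicate numbers are shared between groups, but the labels do not say that they pair libraries. At 50 °C, libraries with the same number shifted in the same sense in both strains (correlations of their deviations across genes 0.635 and 0.529), but not at 30 °C (-0.107 and -0.145). With 2 XH7 libraries a group, their deviations mirror each other, so the correlations at a temperature share the same XH7 difference and are not independent. With the replicate number as a block, 8 of the 28 genes were called at 30 °C, 3 at 50 °C and 1 for the response, while calls over all genes at 50 °C fell to 240, against 539 without it. YJL144W lost its call at both temperatures under the block (adjusted p = 0.0985 at 50 °C and 0.0566 at 30 °C). Fewer than 4 libraries a group and 5 to 12 counts of the long U5 form at 30 °C limit what these comparisons can show.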
